A study of Mus musculus with 8 samples.

Results

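CD antigens are the surface molecules that the cluster of differentiation numbering collects, most of them used to sort leukocytes. The genes described here are those whose mouse symbol starts with Cd followed directly by a number, with Cd2, Cd3g, Cd22, Cd74 and Cd2ap left out by the same rule. They came to 39 of 8741 named genes, on 45 of 12296 named probes, and each was placed by cell lineage or protein class in 1 of 9 groups. Of the 39, 35 had 1 probe and 4 had several, which were averaged. Probes of Cd163, Cd28, Cd3e, Cd4, Cd5, Cd80 and Cd93 stand at annotation numbers whose names could not be relied on, so these 7 genes are not analysed here.

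The samples were 8 hybridisations on 2-colour arrays of whole lung RNA. They came from 4 male mice transgenic for Fra-2, the AP-1 transcription factor encoded by Fosl2, 14 weeks old and of C57BL6 x CBA background. The RNA of each mouse went onto 2 arrays, in Cy5 on 1 and in Cy3 on the other, against 1 pool made from 4 wild-type males of that age and background, so the pool is the only control and the number of mice limits the precision. The promoter that drives the transgene is not given in the sources used here, and ratios give no level by which the tissue could be checked.

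CD molecules work in several ways. Some are parts of antigen receptors or adjust their signal, as Cd3d, Cd247 and Cd79b do. Others are partners through which antigen-presenting cells and lymphocytes meet (Cd40, Cd83, Cd86), membrane organisers of the tetraspanin family (Cd9, Cd63, Cd81), or shields against complement (Cd55, Cd59a). In lung, T cells, B cells and macrophages carry many of them, while others mark endothelium, stroma or epithelium, so a CD gene need not come from a leukocyte.

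All values are log2 ratios, read as transgenic lung over the pool. That reading is probable and not settled: it follows the order of the channels in the labels, and how the authors formed the ratio is not given in the sources used here. With the ratio turned, every rise below would be a fall. Names rest on an offset of 11 between annotation numbers and rows of values. Arrays gave 20585 to 20729 usable ratios. Array 8, which held mouse 4 in Cy3, stood apart with a median absolute deviation of 0.440, against 0.224 to 0.259 on the others, and its Pearson correlation over probes with the other array of mouse 4 was 0.389, against 0.587 to 0.685 for the pairs of mice 1 to 3. Marker genes of other cells moved too. Heart and skeletal muscle genes were lower in 8 of 8 (median -0.99), fat genes in 5 of 6 (median -1.76), alveolar epithelial genes in 3 of 5 with 1 higher (median -0.55) and red cell genes in 1 of 2 (median -0.39). Of 3 alveolar macrophage genes, 2 fell and 1 rose (median -1.16, from -2.54 to 4.43), and of 5 neutrophil genes, 3 rose and 2 fell (median 0.48). The part of these shifts in the values below was not tested.

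Of the 39 CD genes, 12 were higher and 4 lower in transgenic lung by limma on the mouse means (adjusted p under 0.05 over all named genes). Over all 8692 genes tested, 13.5% were higher and 18.4% lower, 31.9% in all. The median of the 39 was 0.18 and that of all genes -0.01. The rises were led by Cd34 (2.26-fold) and the leukocyte antigen gene Cd52 (2.24-fold), and the falls by the tetraspanin gene Cd81 (1.7-fold) and the sialomucin gene Cd164 (1.61-fold). All 16 called genes had the same sign in 4 of 4 mice. The call rests on the values of these mice, so this count largely follows from it and is no separate check. Across all 8 arrays the sign stayed unchanged for 8 of the 39 (20.5%), each of them a called gene, against 27.7% of all genes. In whole lung, fewer cells of a type and less RNA per cell cannot be told apart.

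How many rises passed depended on the mice. Without mouse 1, 5 were higher (6.9% of all genes), and without mouse 3, 6 were higher (8.89% of all genes), while the count of lower genes stayed at 4 or 5. Over 17 other settings, 6 of the 16 genes kept their call in each: Cd34, Cd52 and Cd48 as higher, Cd81, Cd248 and Cd300lf as lower. The remaining 10 lost it in at least 1.

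**Figure D1:**
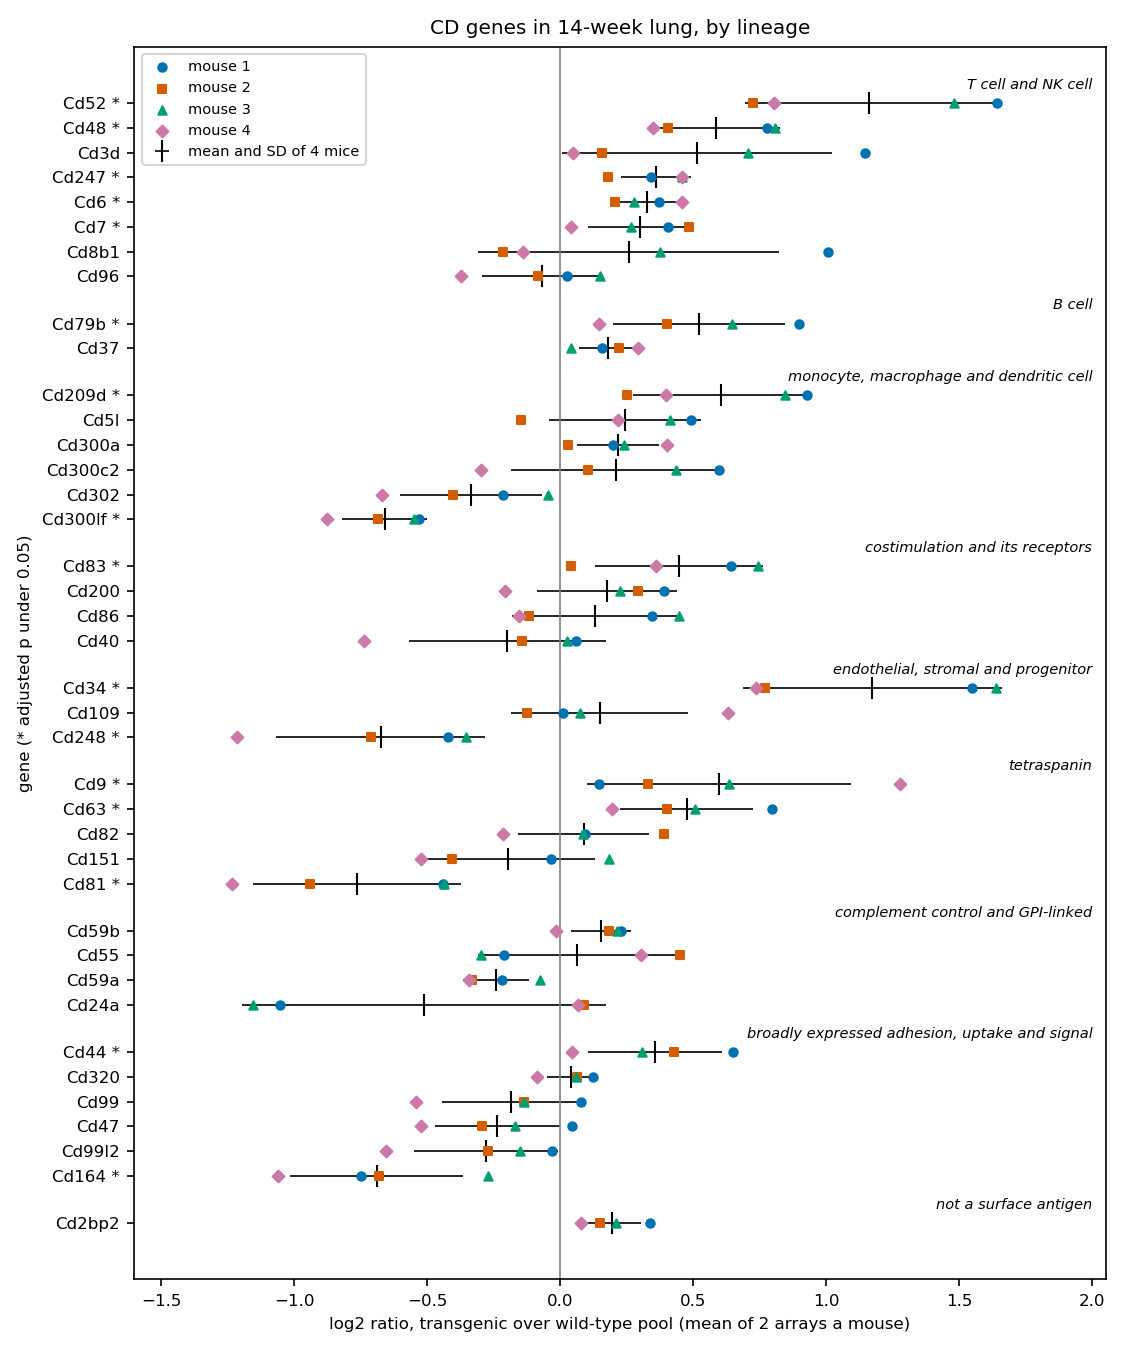
Log2 ratio of transgenic lung over the wild-type pool for each CD gene (rows, grouped by lineage), with 1 symbol for each of 4 mice and the mean and SD as a cross; an asterisk marks an adjusted p under 0.05. Cd34 and Cd52 have the highest means and all 4 mice above 0.7, and Cd24a is split, with mice 1 and 3 near -1 and mice 2 and 4 near 0.

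Of the 8 genes placed with T cells and NK cells, 5 rose and 0 fell (13.5% and 18.4% of all genes), with a median of 0.34. The 5 were Cd52, Cd48, Cd247, Cd6 and Cd7. Cd52 encodes a short GPI-anchored glycoprotein of lymphocytes that other leukocytes carry too. Its log2 ratio was 1.64, 0.72, 1.48 and 0.80 in mice 1 to 4 (mean 1.16 ± 0.47, SD, n = 4, adjusted p = 0.00345). Every mouse was above the pool, mice 1 and 3 by more than mice 2 and 4. Cd48, the gene of a ligand for the NK and T cell receptors of the SLAM family that most leukocytes express, gave 0.78, 0.41, 0.81 and 0.35 (mean 0.59 ± 0.24, adjusted p = 0.00695). It split the mice into the same pairs, with mice 1 and 3 above mice 2 and 4, but the order within each pair was reversed.

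The T cell receptor chain genes moved less evenly. Cd247, which encodes the zeta chain that carries the receptor's signal into the cell, gave 0.34, 0.18, 0.46 and 0.46 (mean 0.36 ± 0.13, adjusted p = 0.0148) as the mean of 4 probes. The probes had means of 0.44, 0.16, 0.30 and 0.54, all above 0, and the first and last of these passed in the test over all named probes, of which 31.1% passed (adjusted p = 0.00689 and 0.00623). This rise stood on the arrays that had the transgenic RNA in Cy3, where the mean was 0.71, against 0.01 on the Cy5 arrays (adjusted p = 0.937). The call also went when mouse 1 (adjusted p = 0.0567), mouse 3 (adjusted p = 0.0584) or array 8 (0.23, adjusted p = 0.0974) was left out. Cd3d, the gene of the CD3 delta chain, gave 1.14, 0.16, 0.70 and 0.05 and did not pass (mean 0.51 ± 0.51, 95% interval 0.10 to 0.93, adjusted p = 0.063). Mouse 1 was far above mice 2 and 4. It passed with the 8 arrays fitted and the mouse as a random block (adjusted p = 0.0222, or 0.0394 with a dye term) and without array 8 (0.55, adjusted p = 0.042).

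Cd6, which encodes a scavenger-type receptor that tunes T cell activation, gave 0.37, 0.21, 0.28 and 0.46 (mean 0.33 ± 0.11, adjusted p = 0.0176) and was above 0 on all 8 arrays. Its call was lost without mouse 1 (adjusted p = 0.076), without array 8 (0.23, adjusted p = 0.0526) and on the Cy5 or Cy3 arrays alone (adjusted p = 0.0991 and 0.0595). Cd7, a gene of early T and NK cells, gave 0.41, 0.49, 0.27 and 0.04 (mean 0.30 ± 0.20, adjusted p = 0.0441). The call went when mouse 1, 2 or 3 (adjusted p = 0.0972 to 0.16) or array 8 (0.24, adjusted p = 0.165) was left out and on the Cy5 arrays (adjusted p = 0.277). Cd8b1, the beta chain of the CD8 coreceptor of cytotoxic T cells, ran from -0.21 in mouse 2 to 1.01 in mouse 1, with 0.38 in mouse 3 and -0.14 in mouse 4 (mean 0.26 ± 0.57, 95% interval -0.20 to 0.71, adjusted p = 0.337). Cd96, the gene of an adhesion receptor of T and NK cells, had a mean of -0.07 ± 0.22 (adjusted p = 0.614).

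Of the B cell genes, Cd79b rose and Cd37 did not pass, with a median of 0.35 over both. Cd79b encodes the beta chain of the signalling pair of the B cell receptor. It gave 0.90, 0.40, 0.65 and 0.14 (mean 0.52 ± 0.32, 1.44-fold, adjusted p = 0.0186), so it was above the pool in every mouse, most in mouse 1 and least in mouse 4. The call went when mouse 1 (adjusted p = 0.0661) or mouse 3 (adjusted p = 0.0583) was left out and on the Cy3 arrays (0.33, adjusted p = 0.181). Cd37, a tetraspanin gene of mature B cells, gave 0.16, 0.22, 0.04 and 0.29 (mean 0.18 ± 0.11, 95% interval 0.001 to 0.36, adjusted p = 0.111), while the Cy5 arrays alone passed (0.37, adjusted p = 0.00933) and the Cy3 arrays gave -0.01.

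Of 6 genes of monocytes, macrophages and dendritic cells, 1 was higher and 1 lower, with a median of 0.21. These counts are near the shares of all genes, 13.5% higher and 18.4% lower. Cd209d, a member of the DC-SIGN family of C-type lectins, gave 0.93, 0.25, 0.85 and 0.40 (mean 0.61 ± 0.33, adjusted p = 0.0119). All mice were above 0, but the mean was 0.99 on the Cy5 arrays and 0.22 on the Cy3 arrays, where it did not pass (adjusted p = 0.348). Cd300lf, which encodes an inhibitory receptor of myeloid cells that binds lipids of dying cells, gave -0.53, -0.69, -0.55 and -0.88 (mean -0.66 ± 0.16, adjusted p = 0.00258). It was below 0 on all 8 arrays and had the smallest adjusted p of the 39 genes.

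The 2 relatives of Cd300lf did not pass on the mouse means. Cd300a, another inhibitory receptor gene of that cluster, had a mean of 0.22 ± 0.15 (95% interval 0.02 to 0.41, adjusted p = 0.0864), and passed as higher with the mouse as a random block (adjusted p = 0.0385, or 0.0498 with a dye term). Cd300c2 had a mean of 0.21 ± 0.40 (adjusted p = 0.293, or 0.0315 on the Cy5 arrays and 0.0499 without array 8). The difference between them and Cd300lf was not tested. Cd5l, which encodes a secreted protein of tissue macrophages, gave 0.49, -0.15, 0.41 and 0.22 (mean 0.24 ± 0.29, adjusted p = 0.141, or 0.0463 without mouse 2), and Cd302, a C-type lectin receptor gene, was below 0 in 4 of 4 mice (-0.33 ± 0.27, adjusted p = 0.0536). Cd302 passed as lower with the mouse as a random block (adjusted p = 0.02, or 0.035 with a dye term), without mouse 3 (-0.43, adjusted p = 0.0391), without array 8 (-0.27, adjusted p = 0.046) and with arrays centred and scaled to equal spread (-0.29, adjusted p = 0.0428).

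Of the 4 genes of costimulation, 1 was higher and 0 lower (13.5% and 18.4% of all genes), with a median of 0.15. Cd83, a maturation marker of dendritic cells that activated B cells also carry, gave 0.64, 0.04, 0.75 and 0.36 (mean 0.45 ± 0.32, adjusted p = 0.0301). Mouse 2 was close to the pool. The call went when mouse 1, 3 or 4 was left out (adjusted p = 0.0737 to 0.11) and on the Cy3 arrays (0.27, adjusted p = 0.2). Cd86, a ligand for CD28 and CTLA-4, gave 0.35, -0.12, 0.45 and -0.16 (mean 0.13 ± 0.31, 95% interval -0.15 to 0.41), with mice on both sides of 0. Cd40, the receptor through which helper T cells license antigen-presenting cells, had a mean of -0.20 ± 0.37 (95% interval -0.52 to 0.12) and was lowest in mouse 4 (-0.74).

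Cd200, which encodes a ligand that restrains myeloid cells, was measured by probes at 0.38 ± 0.34 and -0.03 ± 0.20. The 2 probes had means of opposite sign, and neither passed over all probes (adjusted p = 0.0589 and 0.872). Their mean was 0.18 ± 0.26 (adjusted p = 0.247), and 0.30 without mouse 4, where it passed (adjusted p = 0.038).

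Among the endothelial, stromal and progenitor genes, Cd34 rose, Cd248 fell and Cd109 did not pass. Cd34 encodes a sialomucin of vascular endothelium, fibroblast subsets and blood progenitors. It gave 1.55, 0.77, 1.64 and 0.74 (mean 1.17 ± 0.49, 2.26-fold, adjusted p = 0.00378) and was above 0 on all 8 arrays, from 0.45 to 1.70. As for Cd52, mice 1 and 3 lay above mice 2 and 4 with no overlap. Cd248, the gene of endosialin, a glycoprotein of pericytes and fibroblasts, gave -0.42, -0.71, -0.35 and -1.22 (mean -0.67 ± 0.39, adjusted p = 0.0127). It was below 0 on all 8 arrays and lowest in mouse 4.

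Cd109, which encodes a GPI-linked protein that binds TGF-beta, had a mean of 0.15 ± 0.33 (adjusted p = 0.401). Its probes gave -0.01 ± 0.17 and 0.30 ± 0.52. The 4 Cy5 arrays had a mean of -0.28 (adjusted p = 0.0234) and the 4 Cy3 arrays 0.57, so the orientations had opposite signs.

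Because Fra-2 binds DNA as part of AP-1, the promoter windows of the CD genes were searched for the AP-1 motif TGANTCA. The windows ran from 250 bases before to 50 after a RefSeq gene start (GRCm38.p6). Of the 39 genes, 27 matched the table, with 33 windows, and TGANTCA stood in 0 of them on either strand, against 7.81% of all 32851 windows. The CRE motif TGACGTCA, which AP-1 and ATF pairs can bind, also stood in 0 of 33, against 1.79% of all windows. These counts say only that the letters are not in these windows. The 100 bases before the start are shown for Cd34, the gene with the highest mean of the 39, and Cd81, the gene with the lowest, 5′ to 3′ on the strand of the gene, in lower case because no motif was found there.
Cd34 (chr1:194938721-194938820, plus strand): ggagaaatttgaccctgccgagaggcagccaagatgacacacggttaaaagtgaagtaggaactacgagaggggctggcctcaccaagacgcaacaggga
Cd81 (chr7:143052650-143052749, plus strand): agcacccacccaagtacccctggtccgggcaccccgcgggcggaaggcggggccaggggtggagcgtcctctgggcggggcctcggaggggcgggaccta

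The PU.1 motif GAGGAAGT was searched as well, since PU.1 is a factor of myeloid and B cells. It stood in 3 of 33 windows, those of Cd37, Cd82 and Cd300lf, against 3.2% of all windows. In Cd37 it began 25 bases before the start and read on the opposite strand, in Cd82 it began 225 bases before it, and in Cd300lf it began at the first transcribed base. Neither Cd37 nor Cd82 passed the test of expression, and Cd300lf fell. The upstream matches follow, 5′ to 3′ on the strand of the gene, with the match in capitals.
Cd37 (chr7:45238840-45238884, minus strand): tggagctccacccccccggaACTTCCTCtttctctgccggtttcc
Cd82 (chr2:93462049-93462096, minus strand): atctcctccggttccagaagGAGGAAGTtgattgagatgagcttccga

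Of the 5 genes placed with the tetraspanins, 2 were higher and 1 lower (13.5% and 18.4% of all genes), with a median of 0.09. Cd37, also a tetraspanin gene, was placed with B cells and is not counted here. Cd63, which encodes a tetraspanin of lysosomes and secretory granules, gave 0.80, 0.40, 0.51 and 0.20 (mean 0.48 ± 0.25, adjusted p = 0.0145). All mice were above 0, but the call was lost without mouse 1 (adjusted p = 0.0554) and on the Cy3 arrays (0.30, adjusted p = 0.191). Cd81, a tetraspanin gene that most cells express, gave -0.44, -0.94, -0.44 and -1.23 (mean -0.76 ± 0.39, adjusted p = 0.00858). It was below 0 on all 8 arrays, with mice 2 and 4 lower than mice 1 and 3.

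Cd9, a tetraspanin gene of platelets, B cell subsets and epithelium, passed at a mean of 0.60 ± 0.50 (0.15, 0.33, 0.63 and 1.28, adjusted p = 0.0368), and this value came from the Cy3 arrays. These gave 0.35, 0.88, 1.01 and 2.58 in mice 1 to 4, while the Cy5 arrays of the same mice gave -0.06, -0.22, 0.26 and -0.03. The mean of the Cy5 arrays was -0.01 (adjusted p = 0.942), with the opposite sign. Without array 8 the mean was 0.27 (adjusted p = 0.103), and the call also went when mouse 2, 3 or 4 was left out (adjusted p = 0.0616 to 0.0838). Cd82 (0.09 ± 0.25, adjusted p = 0.54) and Cd151 (-0.20 ± 0.33, adjusted p = 0.26), tetraspanin genes of many cell types, had mice on both sides of 0.

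None of the 4 genes placed with complement control and GPI-linked proteins passed by limma, where 31.9% of all genes did. Their median was -0.09, and 1 had an unadjusted p under 0.05, Cd59a. The group does not hold every GPI-linked gene, since Cd52, which rose, and Cd109 were placed in other groups. With the 8 arrays and the mouse as a random block, Cd59a passed as lower (adjusted p = 0.0435, or 0.0288 with a dye term), and so did Cd24a (adjusted p = 0.045), whose call was lost once the dye term was added (adjusted p = 0.0599). Cd59a, which encodes the inhibitor of the membrane attack complex, was below 0 in 4 of 4 mice (-0.22, -0.33, -0.08 and -0.34, mean -0.24 ± 0.12, adjusted p = 0.0525), and passed on the Cy3 arrays alone (-0.40, adjusted p = 0.0365). Its paralogue Cd59b, close enough in sequence that the probes may share signal, had a mean of 0.15 ± 0.11 (adjusted p = 0.163), and passed as higher without array 8 (0.31, adjusted p = 0.0379), on the Cy5 arrays alone (0.45, adjusted p = 0.00668; -0.14 on the Cy3 arrays) and with arrays centred and scaled to equal spread (0.22, adjusted p = 0.0335). Cd55, the gene of decay-accelerating factor, gave -0.21, 0.45, -0.30 and 0.31 (adjusted p = 0.753), with mice 1 and 3 below and mice 2 and 4 above the pool.

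Cd24a was the 1 CD gene that differed between mice (limma F test on the 8 arrays, adjusted p = 0.0116), against 2.74% of all genes. It encodes a small mucin-like GPI-anchored protein of epithelium, immature B cells and granulocytes. The ratio was -1.05 in mouse 1 and -1.15 in mouse 3, but 0.09 in mouse 2 and 0.07 in mouse 4. Both arrays of each mouse gave nearly the same value, -0.99 and -1.12 in mouse 1, 0.11 and 0.06 in mouse 2, -1.11 and -1.20 in mouse 3, and 0.11 and 0.03 in mouse 4. Its probes gave -0.94, 0.27, -1.09 and 0.32 on one and -1.17, -0.09, -1.22 and -0.18 on the other, so both put mice 1 and 3 apart from mice 2 and 4. Its mean against the pool was -0.51 ± 0.68 and did not pass (adjusted p = 0.128), while the lower of its probes passed (-0.66, adjusted p = 0.0407 over all probes). The difference between mice was not called without mouse 2 or without mouse 3, when 0 CD genes passed. In these settings hardly any gene passed, 0.0578% of all genes without mouse 2 and 0.0693% without mouse 3.

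**Figure D2:**
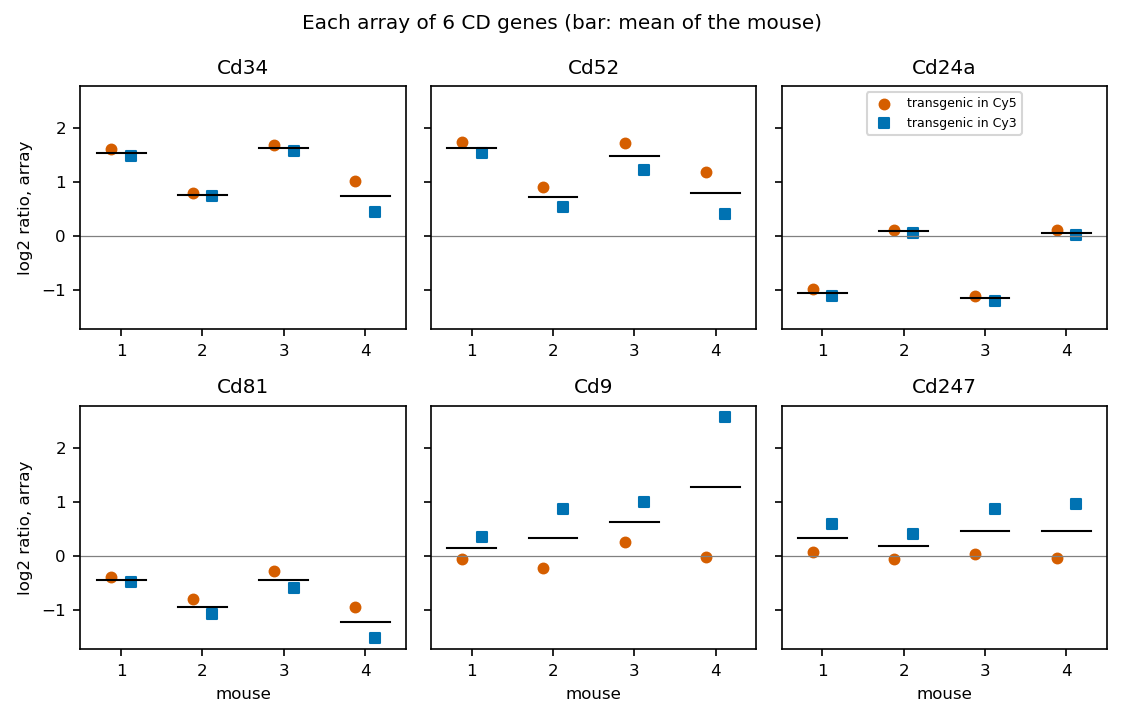
Log2 ratio of each array for 6 CD genes by mouse, with the transgenic RNA in Cy5 (circles) or in Cy3 (squares) and the mean of the mouse as a bar. For Cd34 and Cd24a the arrays of mice 1 to 3 lie close together within a mouse, while for Cd9 and Cd247 the Cy3 arrays lie above the Cy5 arrays in every mouse.

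Of the 6 broadly expressed genes, 1 rose and 1 fell (13.5% and 18.4% of all genes), with a median of -0.21. Cd44, the hyaluronan receptor gene, gave 0.65, 0.43, 0.31 and 0.05 (mean 0.36 ± 0.25, adjusted p = 0.0387) and was above 0 on all 8 arrays. Its call went when mouse 1, 2 or 3 was left out (adjusted p = 0.0811 to 0.145) and on the arrays of either dye orientation alone (adjusted p = 0.0551 and 0.0615). Cd164, which encodes a mucin-like receptor also called endolyn, gave -0.75, -0.68, -0.27 and -1.06 (mean -0.69 ± 0.33, adjusted p = 0.00744). It was below 0 in every mouse and missed the threshold only on the Cy3 arrays (-0.52, adjusted p = 0.0652) among the 17 settings.

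Cd47, which encodes the signal that keeps macrophages from engulfing a cell, had a mean of -0.24 ± 0.24 (95% interval -0.47 to 0.003, adjusted p = 0.116). Cd99 (-0.18 ± 0.26, adjusted p = 0.222) and its relative Cd99l2 (-0.28 ± 0.27, adjusted p = 0.0929), adhesion genes of leukocytes and endothelium, were lowest in mouse 4. Cd320, the receptor gene for vitamin B12 bound to transcobalamin, had a mean of 0.04 ± 0.09 (adjusted p = 0.698). Cd2bp2 falls under the rule by its symbol but encodes an intracellular protein that binds the tail of CD2, and it did not pass (0.19 ± 0.11, adjusted p = 0.0923). It passed as higher without array 8 (adjusted p = 0.0338), on the Cy5 arrays (adjusted p = 0.0166), with arrays centred and scaled (adjusted p = 0.0437) and with the mouse as a random block and a dye term (adjusted p = 0.0455).

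Of the 39, 29 were above 0 in mouse 1, 23 in mouse 2, 28 in mouse 3 and 20 in mouse 4, where 49.2%, 49%, 47.7% and 44.1% of all genes were above 0. The medians of the 39 were 0.20, 0.09, 0.21 and 0.04, and the difference between mice over the whole group was not tested. Of the 12 genes called higher, mouse 1 had the highest value in 5, mouse 3 in 4, mouse 4 in 2 and mouse 2 in 1. Of the 4 called lower, all had their lowest value in mouse 4, the mouse of array 8. Cd34 and Cd52 missed the threshold for a difference between mice (adjusted p = 0.0518 and 0.0586), but both passed without array 8 (adjusted p = 0.0336 and 0.0455). With each array centred on its median they passed too (adjusted p = 0.0427 and 0.0483).

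By limma on the within-mouse differences, 0 of the 39 passed for a dye effect at adjusted p under 0.05, as for all genes (0%). An unadjusted p under 0.05 was found for 18 of the 39 (2299 of 8645 over all genes), so the absence of calls does not show that the dye had no effect. The mean had the same sign in both orientations for 32 of the 39 and for 15 of the 16 called genes, Cd9 being the exception. The other 6 with opposite signs were Cd109, Cd96, Cd37, Cd320, Cd59b and Cd55. Besides Cd9, the gap was widest for Cd109 (-0.28 in Cy5, 0.57 in Cy3), Cd209d (0.99 and 0.22) and Cd247 (0.01 and 0.71).

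**Figure D3:**
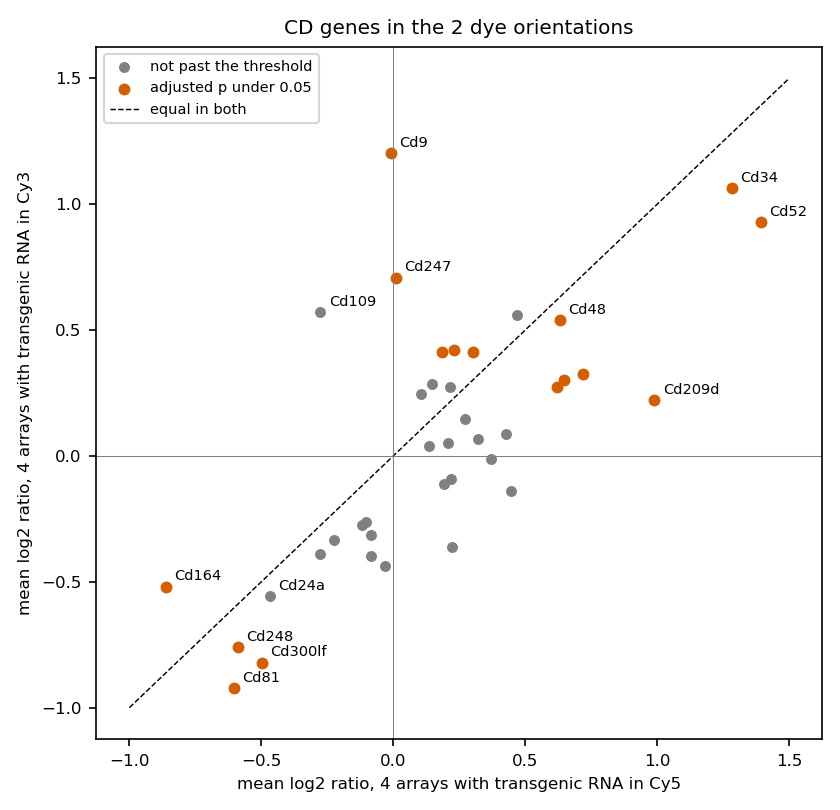
Mean log2 ratio of each CD gene over the 4 arrays with the transgenic RNA in Cy5 (horizontal) and over the 4 with it in Cy3 (vertical), with called genes in orange and a dashed line of equal values. Cd34, Cd52, Cd48, Cd81, Cd248 and Cd300lf lie on the same side of 0 on both axes, and Cd9, Cd247 and Cd109 lie far above it.

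Many CD antigens have gene symbols of another form, and a list of them was read beside the 39. Of 11 tested that were listed with lymphoid cells, 3 were higher and 0 lower (median 0.05), against 13.5% and 18.4% of all genes. These were Pdcd1, which encodes the inhibitory receptor PD-1 (0.83 ± 0.39, adjusted p = 0.00655), Ms4a1, the gene of the B cell antigen CD20 (0.65 ± 0.19, adjusted p = 0.00335), and Tnfrsf13b, the gene of the B cell receptor TACI (0.38 ± 0.16, adjusted p = 0.0152). Ptprc, which encodes CD45, the phosphatase common to leukocytes, had a mean of 0.04 ± 0.13 (adjusted p = 0.715), where Cd52 had 1.16. The difference between Ptprc and Cd52 was not tested. The call of Tnfrsf13b went when mouse 1 (adjusted p = 0.0716) or mouse 3 (adjusted p = 0.0577) was left out and on the Cy3 arrays (adjusted p = 0.212).

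Of 12 tested that were listed with myeloid cells, 2 were higher and 3 lower (median 0.15), against 13.5% and 18.4% of all genes. The mannose receptor gene Mrc1 (1.25 ± 0.27, adjusted p = 9.14e-04) and Itgb2, the beta chain of the leukocyte integrins (1.18 ± 0.55, adjusted p = 0.00512), rose, and Adgre5, the gene of CD97, fell (-0.71 ± 0.19, adjusted p = 0.00269). Itgb2 differed between mice, from 0.59 in mouse 2 to 1.89 in mouse 1 (limma F test, adjusted p = 0.028). The other two lower genes, Lamp1 (-0.36 ± 0.26, adjusted p = 0.0403) and Lamp2 (-0.36 ± 0.23, adjusted p = 0.0342), encode lysosomal membrane proteins of nearly all cells and do not mark myeloid cells. Of 20 tested that were listed with endothelium, stroma or epithelium, 3 were higher and 5 lower (median -0.19), near the same shares of all genes. The adhesion gene Icam2 (-0.99 ± 0.48, adjusted p = 0.00591), Eng, which encodes the TGF-beta coreceptor endoglin (-0.61 ± 0.29, adjusted p = 0.00909), and Podxl, the gene of the sialomucin podocalyxin (-0.58 ± 0.47, adjusted p = 0.0349), all expressed in endothelium, fell while Cd34 rose. Cdh5 (-0.43, adjusted p = 0.146), Pecam1 (-0.21, adjusted p = 0.239) and Vwf (0.02, adjusted p = 0.899), of the same list, did not pass. Cdh5 differed between mice (limma F test, adjusted p = 0.0217). The call of Podxl went when mouse 1, 2 or 4 was left out (adjusted p = 0.0545, 0.117 and 0.134), on the Cy5 arrays (adjusted p = 0.1) and with placeholders kept as deposited (adjusted p = 0.0605).

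**Figure D4:**
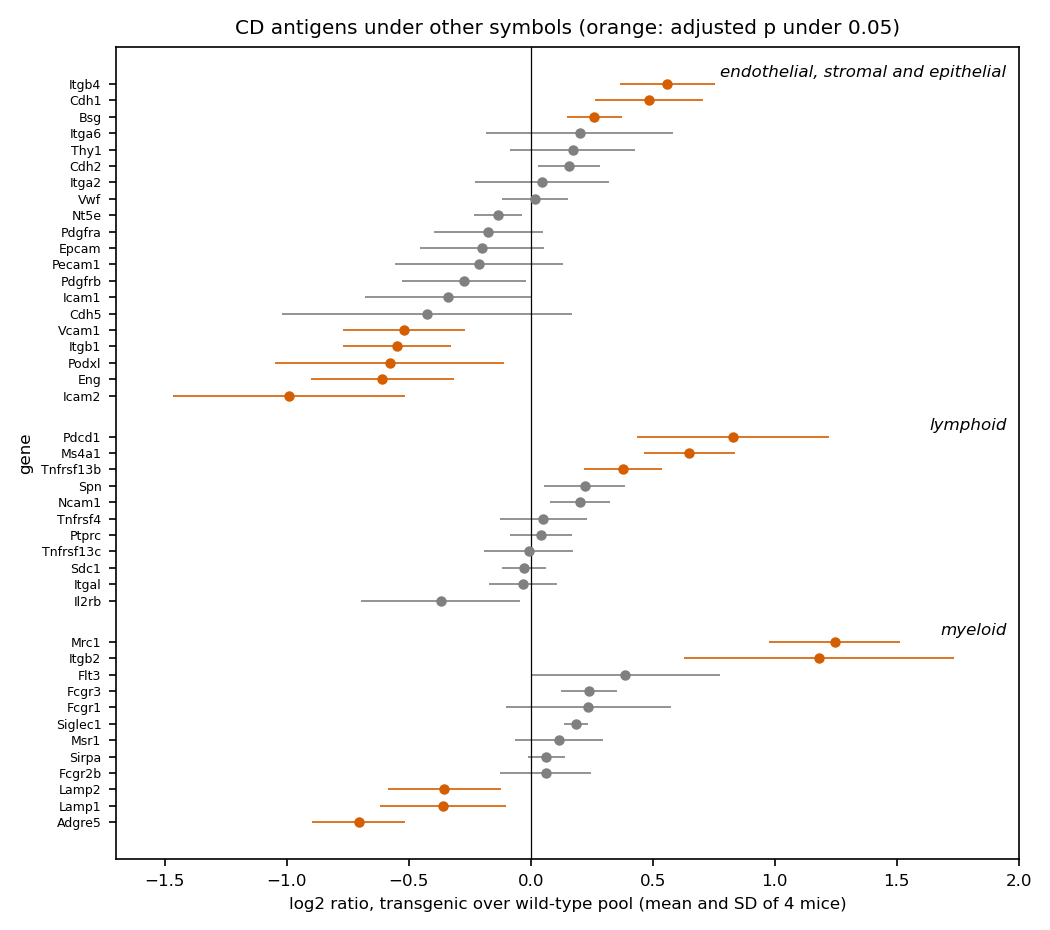
Mean log2 ratio and SD of 4 mice for CD antigens whose symbols do not start with Cd and a number, in 3 groups, with called genes in orange. Mrc1 and Itgb2 lie near 1.2 and Icam2 near -1, while Ptprc lies at 0.04.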

How the data were processed

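The authors deposited a log2 ratio for each probe on each array. How background and normalization were handled is not given in the sources used here. Per the labels, RNA was labelled indirectly with Cy3 or Cy5. Values beyond 10 in size (498 placeholders) were set to missing, and 706 were missing as deposited. Array medians lay between -0.09 and 0.01, so no centring was applied. Centring by the authors stays unknown. Annotation numbers up to 20237 were paired with rows at an offset of 11, where probes of the same gene correlated best (Spearman 0.239 over 3550 pairs, at most 0.066 at the other 6000 offsets tried). In 18 of 21 blocks of 1000 numbers no other of 121 nearby offsets did better. Cd320 and 1 probe of Cd109 lie in a block where another did. Current symbols came from the RefSeq table of GRCm38.p6 by gene identifier (12771 of 12771 matched).

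Probes were averaged per gene and the 2 arrays per mouse, so n = 4. A gene entered if each mouse had a value. limma 3.58.1 (R 4.3.3) tested whether the mean differed from 0 (two-sided, Benjamini-Hochberg over 8692 genes), which leaves out the spread of the single pool. Nothing says how the wild types in the pool varied. Differences between mice used a limma F test on 8 arrays with a dye term. The tests were also run on simulated data, drawn as independent normal values. These had no dye effect, no array of wider spread and no error of the pool, so they do not cover such features. Plots and motif searches used Python 3.11.15 and matplotlib 3.10.9. Values for each mouse are given for up to 5 called genes of each group by size and for fixed defining markers. They are also given for genes whose probes disagree or that differ between mice. Up to 3 called companion genes a list are named by size. Ptprc, Lamp1, Lamp2, Cdh5, Pecam1 and Vwf were added after their values were seen. The genes and lists were chosen with earlier results of these data known. The alternatives covered scaling, placeholders, probes, dye orientation, blocking, filters, naming and each mouse; leaving out array 8 was added after seeing the data.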

Additional observations from a re-analysis of the deposited data

Results flagged for a closer look

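In 3 of 39 CD genes, 1 of the 8 arrays stood apart from the rest by Dixon's criterion, which chance gives in about 1 of 20 groups, and in each it was array 8, the array with the widest spread of ratios. Cd9 was at 2.58 there, against -0.22 to 1.01 on the other arrays. Cd109 was at 1.52, against -0.35 to 0.36. Cd300lf was at -1.26, against -0.75 to -0.36, and kept its call without that array. On the means of the 4 mice, 0 of 39 genes had a mouse that stood apart by the same criterion.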

How the results depend on the processing

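The count of CD genes higher, 12 on the mouse means, was 6 on the Cy3 arrays alone, 5 to 11 when 1 mouse was left out and 9 to 14 in the other settings. The share of all genes higher moved too, from 13.5% on the mouse means to 7.87% on the Cy3 arrays alone. It was 6.9% to 11% when 1 mouse was left out and 11.6% to 16.2% in the other settings. Of the 12, 6 were among those counted on the Cy3 arrays, 5 to 10 when 1 mouse was left out and 7 to 12 in the others. The count lower, 4 on the mouse means, was 7 on 8 arrays with the mouse as a random block, the 4 with Cd24a, Cd302 and Cd59a, and 4 or 5 when 1 mouse was left out. Of all genes, 18.4% were lower on the mouse means, 22% with the random block and 10.9% to 14% when 1 mouse was left out. The count that differed between mice was 1, but 3 with arrays centred on their medians or without array 8, 5 with arrays also scaled to equal spread, and 0 to 4 when 1 mouse was left out. The share of all genes that differed was 2.74% in the main test, 2.94% with arrays centred and 3.56% without array 8. It was 5.62% with arrays also scaled and 0.0578% to 4.26% when 1 mouse was left out. Against the mean of both orientations, Cd9 (-0.01), Cd109 (-0.28) and Cd96 (0.22) changed sign on the Cy5 arrays alone, and Cd37 (-0.01), Cd320 (-0.11), Cd59b (-0.14) and Cd55 (-0.09) on the Cy3 arrays alone; of these 7 Cd9 was called on the mouse means, and Cd109 passed with the turned sign. The cause was not tested in any of these. Of the 23 genes not called, 12 passed in at least 1 setting, Cd109 as lower against a mean above 0. No paired analysis was possible because there is 1 group against 1 pool; the random block above joins the 2 arrays of a mouse. Cd247 (adjusted p = 0.058) and Cd9 (adjusted p = 0.113) lost their call under it. With placeholders kept as deposited, Cd44 (adjusted p = 0.0575), Cd7 (adjusted p = 0.0589) and Cd9 (adjusted p = 0.0635) lost theirs, and Cd7 also missed in the test over probes (adjusted p = 0.0504). Spot intensities were not used here, so signal over background is unknown.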
